A study of Homo sapiens with 12 samples.

Results

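In HepG2 cells, 4567 of the 24446 H3K4me3 peaks on chromosomes 1 to 22 and X shared at least 1 bp with an H3K4me1 peak and none with an H3K27ac peak. They made up 18.7% of the list (95% Wilson interval 18.2 to 19.2, SD 3.14 over 23 chromosomes). These peaks, called non-acetylated below, were chosen by comparing the 3 deposited peak lists, so the presence of H3K4me1 and the lack of an H3K27ac call describe the choice and are not findings. Of the other H3K4me3 peaks, 18106 touched both other marks and are called acetylated below, 849 touched H3K27ac without H3K4me1, and 924 touched neither.

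HepG2 is an established human line from a liver tumour, and the cells were untreated. Chromatin immunoprecipitation and sequencing (ChIP-seq) was done on 3 libraries each for H3K27ac, H3K4me1 and H3K4me3 and on 3 control libraries, titled input although the antibody given for them was anti-mouse IgG. Each mark came as 1 peak list that pooled its libraries, so every value below comes from a single pooled list, without replicates, and no difference could be tested against the spread between cultures. Library depth is unknown. Spreads over chromosomes show how even a difference was along 1 genome, and Wilson intervals cover counting error only.

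H3K4me3 is trimethylation of lysine 4 on histone H3. It is laid down mainly at promoters by SET1 and MLL complexes and is favoured at CpG-rich DNA. H3K4me1 is the singly methylated form of the same lysine and is known from enhancers and from the flanks of promoters. H3K27ac, written by the acetyltransferases p300 and CBP, is known from promoters and enhancers in use. H3K4me3 without acetylation is known from weak promoters and from bivalent promoters, where H3K4me3 sits beside the Polycomb mark H3K27me3, as at many developmental genes. H3K27me3 was not among the marks profiled. Therefore the lists cannot separate bivalent from weak promoters. Which of the peaks lie at promoters rather than enhancers is not known either, since gene starts were not analysed here. The peaks are described by their marks only.

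The first comparison asked how strong and wide the non-acetylated peaks were. They were weak and narrow: their median H3K4me3 signal value was 3.56 (interquartile range 2.43 to 6.30), against 27.9 (5.13 to 46.7) in acetylated peaks. The signal value is the strength that the authors' peak caller gave each peak, on a scale the sources used here do not define. Median width was 703 bp (489 to 1019) against 2075 bp (1041 to 2972). Weakness and narrowness were not particular to them. H3K4me3 peaks with neither other mark had a median signal value of 3.33 (2.53 to 5.21) and a median width of 534.5 bp (415 to 734). The non-acetylated peaks therefore held 18.7% of all H3K4me3 peaks but only 3.72 Mb, or 8.23%, of the bases under H3K4me3.

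Both differences had the same direction on every chromosome. The difference in median log2 signal value, non-acetylated minus acetylated, had a mean of -2.91 (SD 0.25), a 7.52-fold lower value, and was negative on 23 of 23 chromosomes. Chromosome values ranged from -3.25 to -2.15, the last on chromosome 21. The difference in median width had a mean of -1362.5 bp (SD 117) and was negative on 23 of 23. A wider peak has more room to touch an H3K27ac peak, so part of the width difference follows from how the peaks were chosen, and that part was not measured.

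**Figure D1:**
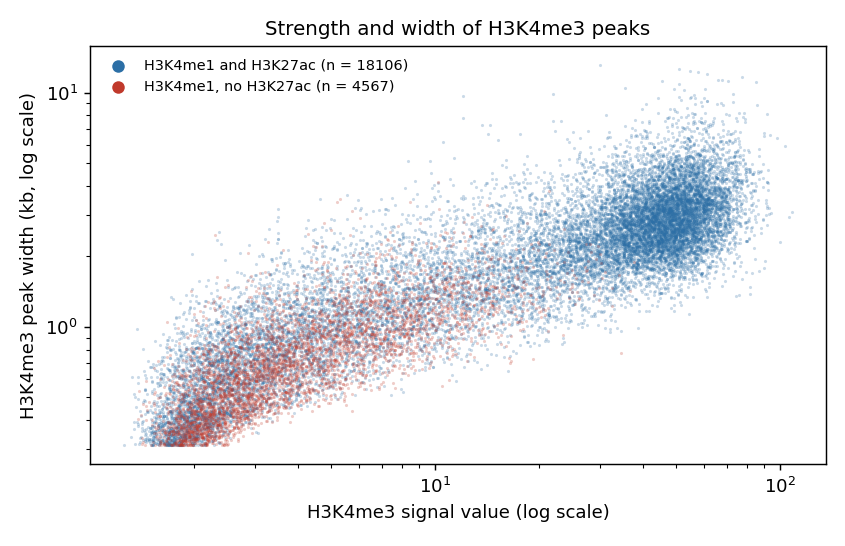
Width of each H3K4me3 peak (y axis, kb, log scale) against its H3K4me3 signal value (x axis, log scale), for the 4567 non-acetylated peaks (red) and the 18106 peaks with both other marks (blue). The red points fill the weak and narrow end, up to a signal value of 37.8, and do not enter the dense blue cloud at high signal value.

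Non-acetylated peaks were spread unevenly over the range of H3K4me3 strength. None of the 2445 peaks in the strongest decile belonged to them, which allows a share of up to 0.157% (upper Wilson bound), and none in the next decile. The share was 0.0409% (1 peak) in the third decile, 1.02% in the fourth and 9.65% in the fifth. In the sixth decile it was 29.6% (27.8 to 31.4), and it was highest in the eighth, at 39.0% (37.1 to 40.9). In the weakest decile it was 32.3% (30.4 to 34.1), below the eighth and ninth beyond the counting intervals. The median signal value of the weakest decile was 1.90. By quartile, 2200 non-acetylated peaks fell in the weakest, 2105 in the next and 262 in the one above. The strongest quartile, with signal values above 41.9, held 0. Of the 924 peaks with neither other mark, 491, 414, 18 and 1 fell in these quartiles, from weakest to strongest.

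**Figure D2:**
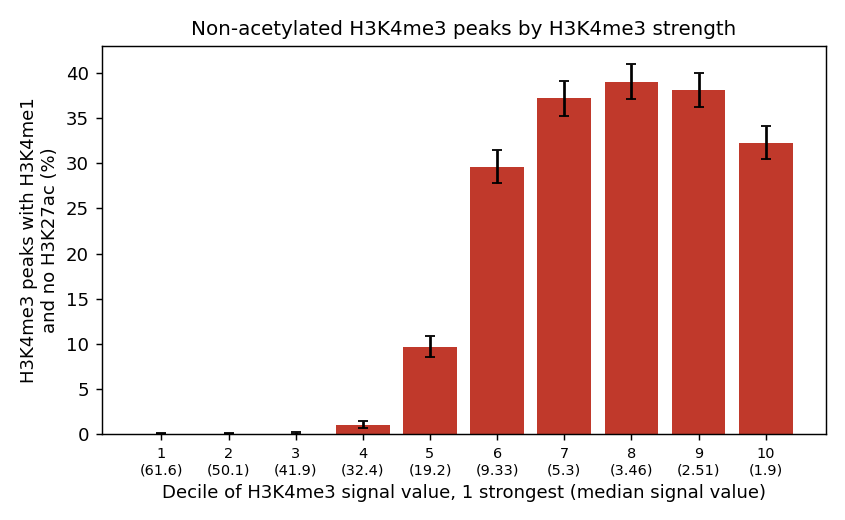
Share of H3K4me3 peaks that are non-acetylated with H3K4me1 (y axis, %) in each decile of H3K4me3 signal value (x axis, decile 1 strongest, median signal value in brackets). Bars are shares and error bars 95% Wilson intervals. The share is 0 in the strongest deciles, 9.65% in the fifth, 39.0% in the eighth and 32.3% in the weakest.

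Most lay well above the calling limit of the H3K4me3 list. The median −log10 p-value was 36.7 (13.9 to 120). A −log10 q-value under 5 was found for 332 of them (7.27%), against 3.74% over all H3K4me3 peaks and 2.64% of acetylated peaks. These 332 all had a signal value of 2.43 or less. A q-value above 0.05 was found for 16.

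Next, the arrangement of H3K4me1 over the peaks was described. H3K4me1 covered a median of 77.3% of the length of a peak (50.6 to 100), and at least 50% of the length of 3444 of the 4567. It covered 67.8% of all non-acetylated bases, against 46.3% of acetylated bases. Within quartiles of H3K4me3 signal value the order varied. Median coverage was 100% in both kinds in the weakest quartile, and 64.8% against 85.9% of acetylated peaks in the next. In the second strongest, with 262 non-acetylated peaks and strength not alike, it was 53.3% against 43.3%. A single H3K4me1 peak touched 3258 (71.3%), 2 touched 1259, 3 touched 47 and 4 touched 3. H3K4me1 covered 1567 peaks from end to end (34.3%, 32.9 to 35.7), against 21.8% of all H3K4me3 peaks, which include those that touch no H3K4me1, and 20.8% of acetylated peaks. This order turned at like strength, with 53.0% against 74.6% of acetylated peaks in the weakest quartile and 18.9% against 34.6% in the next. The second strongest had 1.53% against 2.05%. H3K4me1 reached both edges with a break between them in 1172 (25.7%), against 45.4% of acetylated peaks. In the weakest quartile these shares were 11.4% and 8.14%, in the next 36.1% and 29.8%, and in the second strongest 61.8% and 58.2%. Such an arrangement is known from promoters whose centre lacks H3K4me1, but 43.8% of these 1172 peaks had their summit inside H3K4me1. H3K4me1 reached 1 edge in 1696 (37.1%), 872 on the left and 824 on the right, against 30.6% of acetylated peaks. These shares were 34.2% and 16.5% in the weakest quartile, 41.0% and 31.3% in the next, and 30.9% and 35.7% in the second strongest. In 132 (2.89%) it lay within the peak and reached neither edge, against 3.20% of acetylated peaks.

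These arrangements went with H3K4me3 strength. Peaks covered end to end had a median signal value of 2.54 and a width of 539 bp. Peaks with H3K4me1 at both edges had 6.32 and 1085 bp. Peaks with H3K4me1 at 1 edge lay between, at 3.77 and 676 bp. Acetylated peaks had the same order. Those covered end to end had 2.65 and 694 bp, those with 1 edge 33.1 and 2087 bp, and those with both edges 39.7 and 2615 bp. When the non-acetylated peaks were divided into 4 groups of equal size by their own signal value, 61.4% of the weakest group were covered end to end and 7.88% had H3K4me1 at both edges. In the strongest group the order was opposite, with 7.62% and 51.8%. Wider peaks are harder to cover whole, and median width went from 418 bp in the weakest group to 1189 bp in the strongest.

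The same gradient was seen at the H3K4me3 summit, the position of highest signal within a peak. An H3K4me1 peak contained 3055 of the 4567 summits (66.9%, 65.5 to 68.2, SD 6.48 over chromosomes), against 40.6% over all H3K4me3 peaks and 37.9% (37.2 to 38.6) of acetylated peaks. From the weakest to the strongest of these groups, the share went from 87.9% (85.9 to 89.7) through 77.1% and 64.2% to 38.4% (35.6 to 41.2). Chromosome values for all non-acetylated peaks ranged from 53.1% on X to 82.0% on chromosome 16. Where the summit lay inside an H3K4me1 peak, the summits of the 2 marks were a median of 260 bp apart.

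Since non-acetylated peaks were weaker, the marks were next compared at like H3K4me3 strength. In the seventh decile, where the median signal value was 5.32 in non-acetylated and 5.28 in acetylated peaks, H3K4me1 contained 61.3% (58.1 to 64.4) and 83.7% (81.6 to 85.6) of the summits. In the eighth decile the shares were 71.9% and 89.5%, in the ninth 82.1% and 94.6%, and in the weakest 88.6% and 95.1%. In the sixth, with median signal values of 8.94 and 9.53, they were 40.1% and 65.4%. In the fifth, with 236 non-acetylated peaks and median signal values of 16.3 and 19.6, they were 23.3% (18.4 to 29.1) and 33.2% (31.2 to 35.3). From the fifth to the weakest decile the order was opposite to that over all peaks: the summits of non-acetylated peaks lay less often inside H3K4me1. The fourth decile, with only 25 non-acetylated peaks, had 16.0% (6.40 to 34.7) and 10.9% (9.70 to 12.3). Within the weakest quartile of H3K4me3 signal value the difference was -11.1 percentage points (mean over chromosomes, SD 3.72), negative on 23 of 23. Within the next quartile it was -20.1 (SD 7.86), negative on 22 of 23. In the second strongest quartile it was 3.85 (SD 18.4), positive on 13 and negative on 10 of 23, with only 262 non-acetylated peaks and a median signal value of 16.8 against 30.3.

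H3K4me1 was also less frequent 2000 bp from the summit at non-acetylated peaks. At 2000 bp, averaged over both sides, 20.4% of positions lay inside an H3K4me1 peak, against 49.7% at acetylated peaks. The gap remained within each quartile that held both kinds: 22.7% against 52.1% in the weakest, 18.2% against 45.8% in the next, and 19.3% against 44.3% in the second strongest. Differences were -28.4 (SD 4.90), -27.6 (SD 5.88) and -26.5 (SD 11.9) percentage points, negative on 23, 23 and 22 of 23 chromosomes. At 5000 bp the shares were 16.7% and 28.8% over all peaks. They were 19.0% against 37.5% in the weakest quartile, 14.9% against 32.2% in the next and 11.5% against 23.9% in the second strongest. Where H3K4me1 peaks ended was not measured, nor was the part of these gaps that follows from the choice. Within quartiles, widths differed less than over all peaks. The difference was -62.3 bp (SD 40.0) in the weakest quartile and -238 bp (SD 78.4) in the next. In the second strongest it was -882 bp (SD 257), but strength was not alike there, at median signal values of 16.8 and 30.3. In the fifth decile, with median signal values of 16.3 and 19.6, median widths were 1411 and 1920 bp.

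**Figure D3:**
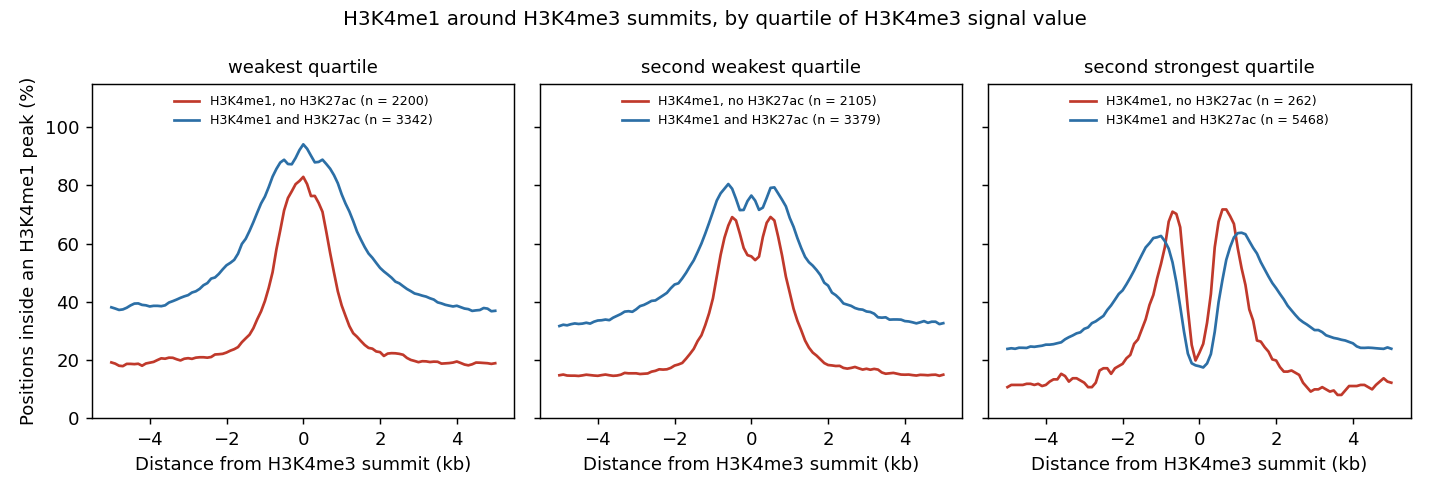
Share of positions inside an H3K4me1 peak (y axis, %) by distance from the H3K4me3 summit (x axis, kb), for non-acetylated peaks (red) and peaks with both other marks (blue), in the 3 quartiles of H3K4me3 signal value that hold both. Lines are shares over all peaks of a group. Red lies below blue at 2 kb in all 3 panels (22.7% against 52.1% in the weakest quartile), and a dip at the summit appears in red from the second weakest quartile on.

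A dip at the summit was present in part of the non-acetylated peaks. In the weakest quartile of all H3K4me3 peaks, H3K4me1 contained 83.0% of non-acetylated summits and 71.2% of positions 500 bp away. In the next quartile it contained 55.6% of summits and 69.1% of positions 500 bp away. In the second strongest quartile it contained 22.5% (17.9 to 28.0) of summits, 66.6% of positions at 500 bp and 55.7% at 1000 bp. Over all non-acetylated peaks the share at the summit exceeded that at 1000 bp by 25.7 percentage points (SD 7.45) on 23 of 23 chromosomes. That value pooled quartiles of different shape and was -2.21 (SD 6.03) against positions at 500 bp, positive on 7 of 23. Acetylated peaks had -23.9 (SD 4.36) at 1000 bp, positive on 0 of 23, a value that also pooled quartiles of different shape. In the weakest quartile, H3K4me1 contained 94.1% of acetylated summits, 88.9% of positions at 500 bp and 76.6% at 1000 bp. The next quartile had 76.5%, 79.0% and 69.9%, and the second strongest had 17.9%, 39.1% and 63.1%. At 1000 bp, non-acetylated peaks had 39.5% in the weakest quartile and 42.2% in the next. In the second weakest quartile both kinds thus had a lower share at the summit than at 500 bp, and a higher one than at 1000 bp.

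The H3K4me1 peaks at these sites were described in their own right. The 5843 H3K4me1 peaks that touched a non-acetylated peak had a median width of 916 bp (572 to 1540) and a median signal value of 4.11 (3.20 to 5.39). Their signal value was close to the 4.16 (3.09 to 5.73) of the 28777 touching an acetylated H3K4me3 peak, whose width was 1135 bp. It was above the 3.30 (2.73 to 4.40) of the 148144 H3K4me1 peaks that touched no H3K4me3, whose width was 629 bp. Of the 5843, 217 (3.71%, 3.26 to 4.23) touched H3K27ac elsewhere along their length, against 24.1% of those without H3K4me3 and 33.4% of all H3K4me1 peaks. The stretch under the H3K4me3 peak could not touch H3K27ac by the choice, which lowers the first of these shares by a part that was not measured. In all, 221 non-acetylated peaks (4.84%) shared an H3K4me1 peak with an H3K27ac peak, and these were weaker (median signal value 2.66) than the other 4346 (3.63).

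The distance to acetylation was measured next, since the choice fixed that it was not an overlap but did not fix its size. The nearest H3K27ac peak lay a median of 20.5 kb away (interquartile range 6.74 to 57.4). It was within 1 kb for 218 peaks (4.77%), within 5 kb for 919 (20.1%), within 50 kb for 3290 (72.0%) and within 500 kb for 4493 (98.4%). H3K4me3 peaks with neither other mark were farther off, at a median of 47.8 kb (12.8 to 178), with 51.0% (47.8 to 54.2) within 50 kb. Within 1 kb these peaks had 5.84% (4.51 to 7.55), and the intervals overlapped there. Chromosome medians for non-acetylated peaks ranged from 8.70 kb on chromosome 19 and 9.09 kb on chromosome 17 to 44.8 kb on chromosome 4. Stronger non-acetylated peaks were farther from acetylation, with medians of 13.1, 19.1, 21.96 and 29.8 kb from the weakest to the strongest of the 4 groups by signal value. Median width went from 418 to 1189 bp over these groups, and wide peaks near H3K27ac are more easily left out by the choice. The part of the trend that follows from the choice was not measured.

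**Figure D4:**
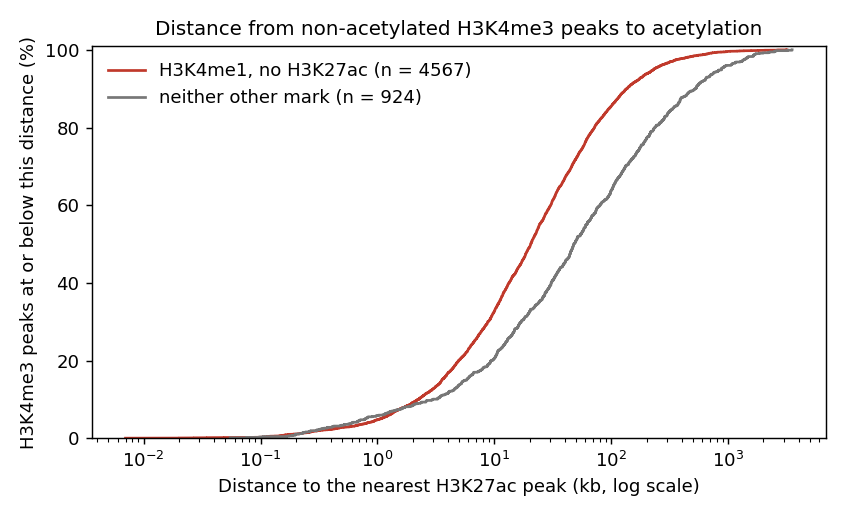
Cumulative share of H3K4me3 peaks (y axis, %) by distance to the nearest H3K27ac peak (x axis, kb, log scale), for non-acetylated peaks with H3K4me1 (red, n = 4567) and for peaks with neither other mark (grey, n = 924). The red curve reaches 72.0% at 50 kb, where the grey curve reaches 51.0%, and the curves run together up to about 1 kb.

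The nearest H3K27ac peaks touched H3K4me3 more often than the H3K27ac list as a whole. For 2647 of the 4567 (58.0%) the nearest H3K27ac peak touched H3K4me3, against 31.7% of all H3K27ac peaks. Counted per non-acetylated peak, the nearest H3K27ac peak had a median signal value of 4.43, against 3.15 in the whole H3K27ac list. An H3K27ac peak can be the nearest of several non-acetylated peaks, and wide peaks are more easily the nearest.

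A minority of the non-acetylated peaks had another H3K4me3 peak close by. Another H3K4me3 peak lay within 5 kb of 1158 (25.4%, 24.1 to 26.6), against 29.7% over all H3K4me3 peaks and 31.5% (30.8 to 32.1) of acetylated peaks. For 602 (13.2%) that neighbour was acetylated, and for 491 it was itself non-acetylated. The 602 had a median signal value of 2.90 and 78.7% of summits inside H3K4me1. The other 3965 had 3.69 and 65.1%. Within quartiles of H3K4me3 signal value, the gap to acetylated peaks was wider than over all peaks. Another H3K4me3 peak lay within 5 kb of 29.7% against 43.5% of acetylated peaks in the weakest quartile. The shares were 21.9% against 38.9% in the next and 16.4% against 27.9% in the second strongest, where strength was not alike.

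Non-acetylated peaks were often each other's neighbours. The nearest H3K4me3 peak was itself non-acetylated for 1467 (32.1%, 30.8 to 33.5), whereas 18.7% of the list was. Along the chromosomes, 2285 (50.03%) stood alone between H3K4me3 peaks of other kinds, and the rest formed runs of 2 to 9 in a row, of which 25 had 5 or more. The longest run, of 9, lay at chr6:28565127-28678326 (GRCh37, the build named hg19 in the submitters' processing notes). Its signal values ranged from 1.90 to 20.4 with a median of 6.83, it contained 18 H3K4me1 peaks and 0 H3K27ac peaks, and 4 of the 9 summits lay inside H3K4me1. The next run, of 8, lay at chr7:27195737-27275492. Its signal values ranged from 2.06 to 14.2 (median 6.06), the strongest at chr7:27238592-27240377, and it too contained 18 H3K4me1 and 0 H3K27ac peaks. The nearest H3K27ac peak was 5.08 kb from the closest member of that run and 84.4 kb from the farthest. Chromosome 7 carries the HOXA homeobox cluster, a textbook place of bivalent chromatin, but genes at this run were not analysed here. A denser run, of 7 within 16.8 kb, lay at chr2:175190798-175207622. Its signal values ranged from 2.42 to 8.43, 6 of its 7 summits lay inside H3K4me1, and its H3K27ac neighbours were 47.1 to 61.2 kb away.

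The fullest windows of 1 Mb were also on chromosome 6. The window from 28 to 29 Mb held 26 non-acetylated peaks among 61 H3K4me3 peaks (42.6%), and that from 27 to 28 Mb held 21 among 47 (44.7%). The third was on chromosome 17 from 48 to 49 Mb, with 15 among 44 (34.1%). Windows that held any had a median of 2. From 26 to 29 Mb on chromosome 6, 58 of 158 H3K4me3 peaks were non-acetylated, with a median signal value of 5.24 (lowest 1.79, highest 23.7) and a median width of 1025 bp. That stretch was not devoid of acetylation: it held 137 H3K27ac peaks, and the median distance to one was 14.2 kb. The short arm of this chromosome is known for a large cluster of histone genes and for the major histocompatibility complex, but which genes the peaks lie at was not analysed here. Without the stretch, 21.7% of the H3K4me3 peaks of chromosome 6 were non-acetylated, against 23.5% with it.

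Over whole chromosomes, the share ranged from 13.7% (11.4 to 16.4) on X and 13.8% (11.9 to 16.0) on chromosome 16 to 24.7% (21.2 to 28.5) on chromosome 13. Chromosomes 6 (23.5%), 10 (22.9%) and 2 (22.2%) followed at the high end, and chromosome 19 (14.99%) was near the low end. The intervals of the highest and the lowest did not overlap, while many neighbours in the order could not be told apart at these counts.

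**Figure D5:**
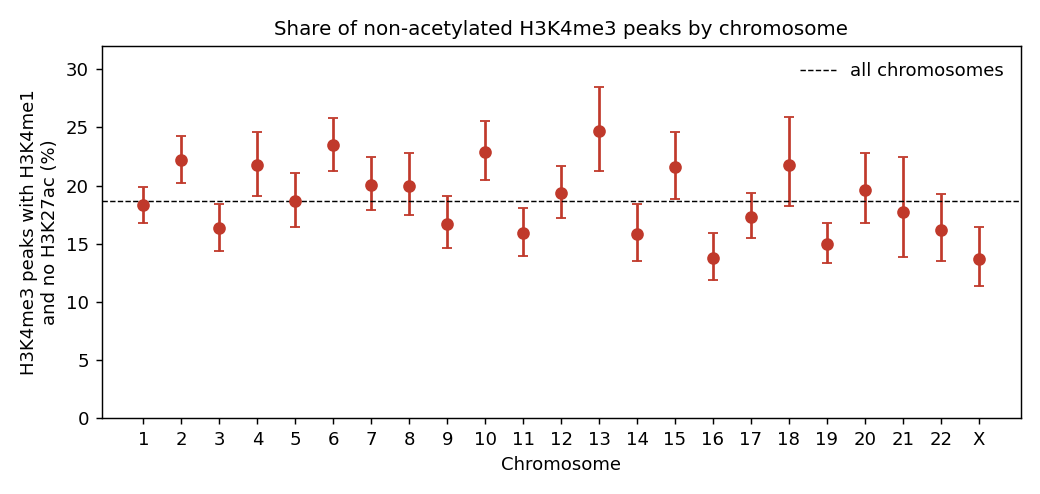
Share of H3K4me3 peaks that are non-acetylated with H3K4me1 (y axis, %) on each chromosome (x axis). Points are shares, error bars 95% Wilson intervals, and the dashed line is the 18.7% of all chromosomes. X and chromosome 16 are lowest, at 13.7% and 13.8%, and chromosome 13 is highest, at 24.7%.

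The 10 strongest non-acetylated peaks had signal values from 30.0 to 37.8 and widths from 770 to 2041 bp. None of their 10 summits lay inside H3K4me1: 5 had H3K4me1 at both edges, 4 at 1 edge, and in 1 it lay within the peak. The strongest was chr1:149298193-149300077, with a signal value of 37.8, an H3K4me1 overlap of 354 of its 1885 bp, and acetylation 73.3 kb away. A second on the same chromosome was chr1:149764052-149764821, with a signal value of 34.5. It was narrow for its strength, at 770 bp, and shared 98 bp with H3K4me1. At chr6:30226797-30228224 the signal value was 36.7, with the highest −log10 p-value of all non-acetylated peaks (3278) and 2 H3K4me1 peaks over 56.9% of its length. At chr11:6439604-6441262 it was 34.1, with H3K4me1 over 44.7%, and at chr10:102329434-102330655 it was 32.6, with 50.2%. The most isolated of the 10 was chr3:23243908-23245779, with a signal value of 30.3, H3K4me1 at both edges and no H3K27ac peak within 601 kb.

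Wide non-acetylated peaks were rare. Only 98 (2.15%) exceeded 2000 bp, against 40.1% of all H3K4me3 peaks and 52.1% of acetylated peaks. Their median signal value was 10.7 (interquartile range 7.30 to 15.0), against 3.56 over all non-acetylated peaks and 13.3 over the whole H3K4me3 list. The widest was chr1:245316426-245320593, at 4168 bp, with a signal value of 10.2 and 4 separate H3K4me1 peaks over 65.1% of its length. The next, chr7:128577346-128581136, was 3791 bp wide with a signal value of 21.3, and H3K4me1 at both edges covered 83.4%. At chr4:75230415-75233920 (3506 bp, signal value 5.29) H3K4me1 covered only 20.6%. At chr15:41220041-41223467 (3427 bp, signal value 5.19) it covered 92.5%, with acetylation 1.52 kb away. At chr6:27634962-27638373 (3412 bp, signal value 8.48) it covered 78.8%, with acetylation 1.47 kb away.

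Values of peaks near the limits of the choice are given as a description. Inside, 12 peaks had an H3K27ac peak within 100 bp, with a median signal value of 2.28 and width of 515 bp. Just outside, 19 peaks with both marks shared 100 bp or less with H3K27ac, with medians of 2.10 and 545 bp. On the H3K4me1 side, 166 peaks inside shared 100 bp or less with H3K4me1 (median signal value 3.34), and 81 outside had an H3K4me1 peak within 100 bp without touching it (3.50). The smallest gap to H3K27ac was 7 bp, at chr17:26903295-26904075, and the smallest H3K4me1 overlap was 3 bp, at chr12:69751365-69751776.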

How the data were processed

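ChIP-seq of HepG2 cells comprised 12 libraries, 3 each for H3K27ac, H3K4me1, H3K4me3 and a control. The files were 3 peak lists, 1 for each mark, made by the authors by pooling the replicates, going by the file names. Per the submitters' processing notes, MACS2 and the build hg19 (GRCh37) were used; its version, threshold and use of the controls are not given in the sources used here. The deposited columns are the signal value (signal), the −log10 p-value, the −log10 q-value and the summit of each peak, and a score deposited by the authors that was not used. Positions are counted from 1.

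Peaks on chromosomes 1 to 22 and X (66513 H3K27ac, 182592 H3K4me1 and 24446 H3K4me3) were compared by overlap of at least 1 bp. Distances were taken between peak edges, quartiles and deciles over all H3K4me3 signal values. Differences by chromosome are means over 23 chromosomes, with SD. No test was run, since there is 1 pooled list per mark. The overlap code was tested on simulated intervals. Gene and promoter tables at hand were of GRCh38, so genes, gene lists, base composition and sequences were not analysed here. The regions, lists and comparisons were chosen with earlier results of these data known. Named regions were the 10 strongest and 5 widest (of the former 6 are given singly) and the 3 fullest windows of 1 Mb; runs were added after their values were seen. Python 3.11.15, numpy 2.4.6, pandas 2.3.3, scipy 1.17.1 and matplotlib 3.10.9 were used.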

Additional observations from a re-analysis of the deposited data

Results flagged for a closer look

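Chromosome Y, outside the comparisons, carried 6 H3K4me3 peaks that touched H3K4me1 and not H3K27ac, of 35 H3K4me3 peaks there. Their signal values ranged from 2.03 to 17.5 with a median of 8.22. They are listed because they lie in data not used above and exceed a count of 0, not because their share is unusual. Over the chromosomes compared above, 4567 of 24446 H3K4me3 peaks (18.7%) were of this kind, with single chromosomes from 13.7% to 24.7%. The share on chromosome Y lay within that range. No control values were analysed for comparison.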

How the results depend on the processing

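Over 5 results, 25 alternative values were computed, of which 21 stayed within 1.5 times the count or within 1 SD over chromosomes, 3 moved more and 1 reversed. The count of non-acetylated peaks fell to 410 with the stronger 50% of each list, of which 201 were among the 4567. The 410 made up 3.35% of the 12223 H3K4me3 peaks kept. That alternative shortens all 3 lists at once. Of the 4567, 4305 (94.3%) had a signal value no higher than the median of the H3K4me3 list, and 262 lay above it. The parts of the H3K4me1 and H3K27ac lists in the change were not tested. Under the other alternatives the count ranged from 3444 (H3K4me1 over at least 50% of the peak) to 4904 (H3K27ac peaks limited to −log10 q-values of 5 and above, which kept all 4567). The share of summits inside H3K4me1 minus that beside them was -2.21 percentage points at 500 bp, 46.6 at 2000 bp and 38.7 with H3K4me1 peaks joined across 1000 bp, against 25.7 at 1000 bp as listed. Holding H3K4me1 alone to the q-value limit, joining H3K27ac peaks, and limiting the distances to stronger H3K4me3 calls were chosen after seeing the data. The comparisons of gene starts, gene lists and base composition were not run, for want of tables of the build of the lists. No paired analysis was possible because each mark has 1 pooled list, which also leaves no replicate to omit. Depth is unknown, so how many H3K27ac peaks were missed at the non-acetylated peaks cannot be stated.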
